A study of Homo sapiens with 2 samples.

Results

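IRF1 binding was examined at 7 genes of protein ADP-ribosylation, namely PARP9, DTX3L, PARP14, PARP12, PARP10, PARP8 and PARP3, in NB4 leukemia cells that had received all-trans retinoic acid (ATRA). The genes were taken by symbol, as the nearest gene of a binding summit at any distance, from a deposited list of 1986 summits with 1644 different nearest genes. They accounted for 8 summits: 1 each for PARP9, PARP14, PARP12, PARP10 and PARP3, 3 for PARP8, and none for DTX3L, which shares a promoter with PARP9. The genes were thus chosen by their summits, and counts, scores and distances are given as a description, with no test.

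NB4 is a human cell line from acute promyelocytic leukemia with the PML-RARA fusion, and ATRA is the differentiating drug of this leukemia. The series holds 1 IRF1 chromatin immunoprecipitation library from cells given ATRA for 4 hours and 1 from control cells given the solvent DMSO. The list belongs to the ATRA library, and the control library was not analysed here, so no gain or loss under treatment can be read from it and no error can be attached to a score. IRF1 is a transcription factor induced by interferons and binds the interferon-stimulated response element (ISRE), in which the letters GAAA are repeated. ADP-ribosyltransferases of the PARP family attach ADP-ribose from NAD to proteins or nucleic acids, most of them as single units, and several are known as interferon-stimulated antiviral genes. PARP9, itself nearly without catalytic activity on its own, forms a complex with the Deltex-type ubiquitin ligase DTX3L, and that complex is known to act in interferon signalling and DNA repair.

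The promoter sequences of the members with a summit inside a RefSeq promoter window are shown first, because each of them held an ISRE core. The core searched was GAAA, any 2 bases and a further GAAA, on both strands, in these windows (GRCh38.p14), which run from 250 bases before to 50 bases after a gene's start. Windows existed for 6 of the 7 genes, and 4 of the 6 held the core: PARP9, DTX3L, PARP14 and PARP12. PARP9 and DTX3L hold the same copy, read from opposite strands. The sequences below run in the direction of each gene up to 30 bases past its start, and capitals mark the core, which in the PARP12 window reads on the other strand. They cover chr3:122564088-122564367 on the plus strand for DTX3L, chr3:122680589-122680868 on the plus strand for PARP14 and chr7:140062922-140063201 on the minus strand for PARP12. The summit is base 265 of the DTX3L sequence, base 242 of the PARP14 sequence and base 233 of the PARP12 sequence.
DTX3L and PARP9 promoter: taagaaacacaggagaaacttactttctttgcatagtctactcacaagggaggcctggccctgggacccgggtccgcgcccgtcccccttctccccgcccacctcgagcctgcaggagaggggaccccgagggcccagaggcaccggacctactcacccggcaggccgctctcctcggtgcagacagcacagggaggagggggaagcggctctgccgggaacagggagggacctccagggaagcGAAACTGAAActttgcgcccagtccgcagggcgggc
PARP14 promoter: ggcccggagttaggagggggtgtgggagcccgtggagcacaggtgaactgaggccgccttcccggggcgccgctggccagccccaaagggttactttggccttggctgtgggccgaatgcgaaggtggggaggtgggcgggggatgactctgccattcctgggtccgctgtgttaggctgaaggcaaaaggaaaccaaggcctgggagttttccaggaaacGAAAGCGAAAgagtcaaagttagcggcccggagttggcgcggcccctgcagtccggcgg
PARP12 promoter: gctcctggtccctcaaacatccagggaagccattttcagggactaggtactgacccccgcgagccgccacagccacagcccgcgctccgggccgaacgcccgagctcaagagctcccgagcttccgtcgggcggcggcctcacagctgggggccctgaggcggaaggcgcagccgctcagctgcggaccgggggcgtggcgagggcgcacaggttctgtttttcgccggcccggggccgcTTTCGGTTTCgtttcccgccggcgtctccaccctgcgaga

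Set side by side in the direction that reads GAAA, the 30 bases around each core are on the genome's plus strand in every case (chr3:122564320-122564349, chr3:122680798-122680827 and chr7:140062940-140062969). Capitals again mark the core, at bases 13 to 22.
DTX3L and PARP9: ctccagggaagcGAAACTGAAActttgcgc
PARP14: tttccaggaaacGAAAGCGAAAgagtcaaa
PARP12: ccggcgggaaacGAAACCGAAAgcggcccc
The PARP14 and PARP12 stretches carry a further GAAA 1 base before the core, at bases 8 to 11, so that each has 3 GAAA repeats in a row. Over the 16 bases from base 8 to base 23, PARP12 and PARP14 were identical at 15, with the difference G10C (PARP14 base first, positions counted from 1 at base 8). The DTX3L and PARP9 copy matched PARP12 at 13 of the 16 and PARP14 at 12. Its differences from PARP12 (PARP12 base first) were A4G, which breaks the first repeat, C11T and G16C. The C that follows its core makes the longer form of the ISRE core, found in 0.795% of all promoter windows. Of the 302 windows with a summit inside, 51 held that longer form (16.9%). Outside this stretch the sequences diverge, with 19 of 30 bases shared by PARP12 and PARP14 in all.

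The core was found in 3.57% of all 35116 promoter windows, and 0.86% of all windows had a summit inside. Counted by gene, 1195 of 27305 genes had the core in a window. The core was present in 117 of the 302 windows that had a summit inside (38.7%, 95% Wilson interval 33.4 to 44.3), against 3.27% of the 34814 windows without a summit. Some genes have several windows, which can overlap, so the windows are not independent. The 3 repeats with gaps of 1 and 2 bases, a pattern searched after the sequences had been seen, occurred in 38 windows (0.108%), of which 11 had a summit inside (3.64% of the windows with one). PARP14 and PARP12 are among those 11. The GAS core, TTC and GAA with any 3 bases between them, was present in the PARP14 window only among the 6 genes with windows, where it overlaps the first of the 3 repeats. It occurred in 7.62% of windows with a summit, against 7.66% of all windows. The windows of PARP3, the 3 of PARP8 and the second, upstream one of PARP9 held neither core. None of these 5 windows contains a summit, so they say nothing about the letters under the PARP3 and PARP8 summits.

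**Figure D1:**
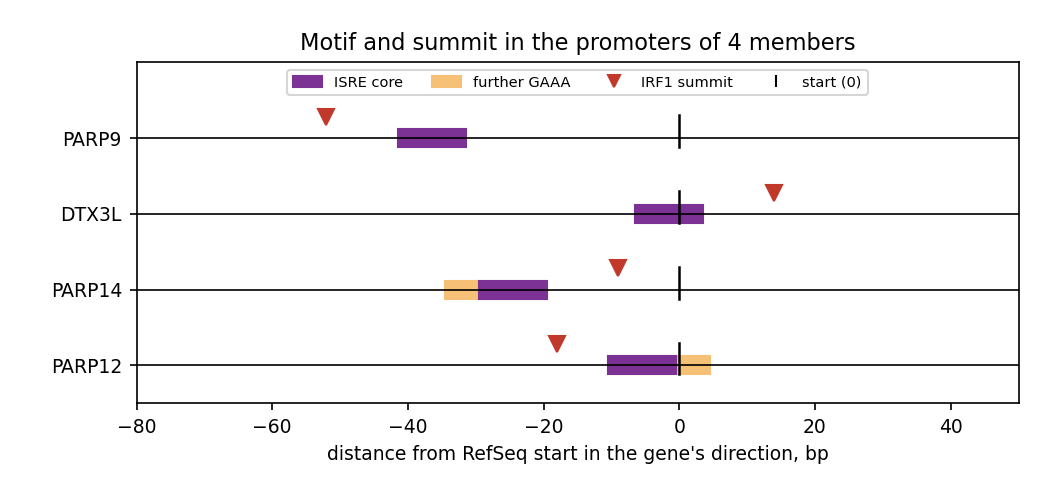
Position of the ISRE core (purple), the further GAAA (orange) and the IRF1 summit (red triangle) relative to the RefSeq start, in bp in the direction of each gene, for PARP9, DTX3L, PARP14 and PARP12. The core spans the start of DTX3L, from -6 to 3, and ends 1 bp before that of PARP12, while PARP9 and PARP14 have it between -41 and -20.

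In all 3 promoters the summit lay just past the 3′ end of the core, read in the GAAA direction. The distance from the centre of the core to the summit was 15.5 bp at PARP9 and DTX3L, 15.5 bp at PARP14 and 12.5 bp at PARP12. Such distances were usual among the summits that shared a promoter window with a core. Of the 255 summits inside a promoter window, 98 shared the window with a core, and their median distance to its centre was 15.5 bp (quartiles 10.5 and 26.0). The summit was on the 3′ side of the core's centre for 85 of the 98 (86.7%). Some of these summits lay within the core itself. The side followed the motif and not the genome axis: it was the 3′ side for 39 of 45 cores on the plus strand and for 46 of 53 on the minus strand.

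**Figure D2:**
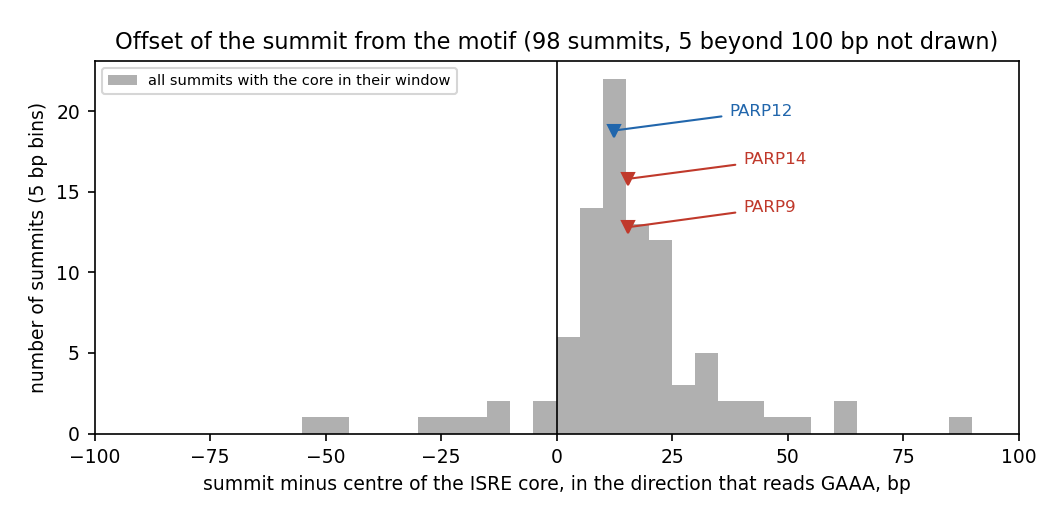
Number of summits by their offset from the centre of the ISRE core in the same promoter window, in bp in the direction that reads GAAA, in 5 bp bins, with 5 of the 98 summits beyond 100 bp not drawn. Triangles mark PARP12 at 12.5 bp and PARP14 and PARP9 at 15.5 bp, close to the peak of the distribution, and their height has no meaning.

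PARP9 and DTX3L start close together on opposite strands of chromosome 3 and share the strongest summit of the cluster. It lies at position 122564352 with a peak score of 240.0, and ranked 12 among 1986 summits, above 99.4% of the list. The peak score is the authors' own value on a scale that is not stated, so differences in it have no unit. The authors' annotation gives this summit to PARP9, at -5 bp from a start at position 122564347. The RefSeq start of DTX3L, at 122564338, is 14 bp from it. Set against the authors' PARP9 start, this makes DTX3L second by 9 bp. Both starts lie at lower positions than the summit, which is thus upstream of PARP9 and downstream of DTX3L in the direction of each gene. The summit is inside the annotated spans of both PARP9 (122527924 to 122564784) and DTX3L (122564338 to 122575203). DTX3L thus counts as bound by position and not by the authors' nearest gene. The closest RefSeq start of PARP9 in the promoter table lies at 122564300, 38 bp from that of DTX3L, and from it the summit is at -52 bp. By RefSeq starts alone the order is reversed, with DTX3L nearer to the summit than PARP9. Like this one, 34 of the 255 summits inside promoter windows (13.3%) lay in windows on both strands. Whether the starts of those windows diverge or overlap was not examined.

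PARP14, a large transferase with macrodomains that bind ADP-ribose, had its only summit at its own promoter. It lies at chromosome 3 position 122680830, 5 bp from the authors' start, with a score of 46.5 and a rank of 460, above 76.6% of the list. The PARP9 and PARP14 summits are 116.5 kb apart and are the only summits in the 202.9 kb from the PARP9 to the PARP14 end of the cluster. Between them lies PARP15, a related transferase gene, which had no summit in or within 10 kb of its span and no ISRE core in its windows. No summit of any other gene came closer than 1132.0 kb to either of them.

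**Figure D3:**
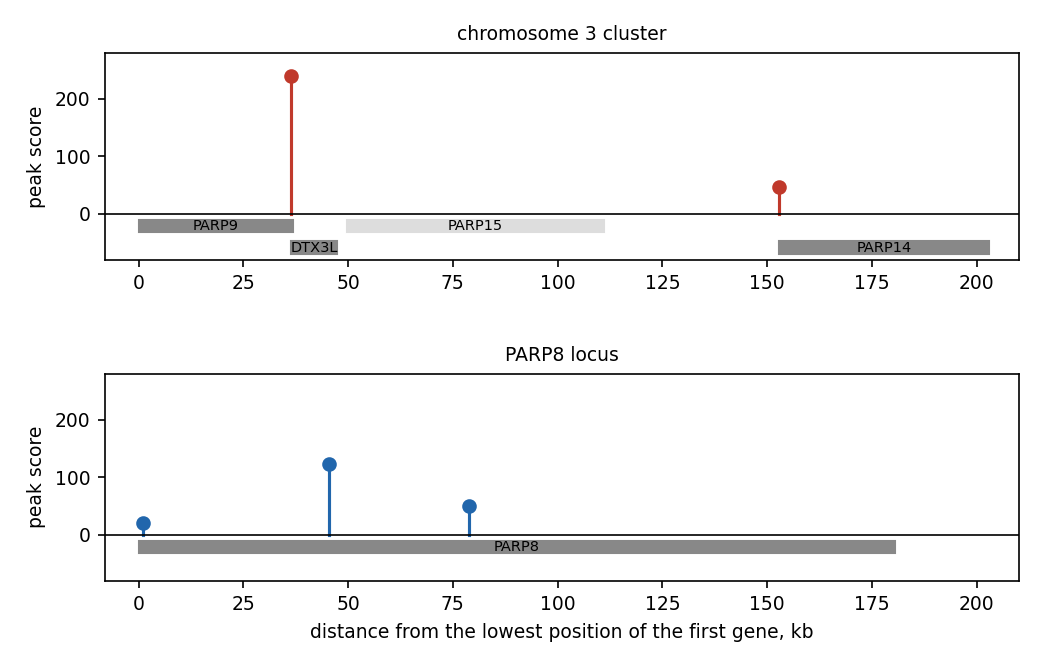
Peak score of each summit (vertical axis, the authors' scale) along the chromosome 3 cluster and the PARP8 gene, against the distance in kb from the lowest position of PARP9 or PARP8. Grey bars are RefSeq gene spans, with PARP15 lighter because it is no member; the cluster shows 1 high summit of 240.0 at the PARP9 and DTX3L start and a lower one of 46.5 at the PARP14 start.

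PARP12 and PARP10, single genes outside the cluster, had summits of the same order as PARP9. PARP12 encodes an antiviral transferase with zinc fingers of a kind found in RNA-binding proteins. Its summit, at chromosome 7 position 140062969, had the highest score of the 8, 287, and a rank of 6, above 99.7% of the list. The authors placed it 752 bp downstream of a start, in exon 1 of 11 of a non-coding transcript. Measured from the RefSeq start at 140062951 it is at -18 bp, so by that start it is a promoter summit like those of the cluster. PARP10 encodes a transferase that modifies proteins with single ADP-ribose units. Its summit at chromosome 8 position 143986477 lay at -10 bp from the start and had a score of 161 and a rank of 48, above 97.6% of the list. It is within the annotated PARP10 span (143977158 to 144012764), and its sequence was not used here.

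The lowest scores of the 8 summits were at the PARP8 promoter and at PARP3. Only PARP8 had summits more than 10 kb from a start. PARP8, a transferase whose function is less well known, was the member with the most summits. Its promoter summit, at chromosome 5 position 50666920 and -18 bp from the authors' start, had a score of 21.3, the lowest of all 8, which exceeded 38.9% of the list. The other PARP8 summits lay in intron 2 of 25, at 44.5 kb from the start (position 50711479) and at 77.9 kb (position 50744836), with scores of 123 and 50.1. Both intronic scores were thus above that of the promoter, and the higher one ranked 14 among the 412 intron summits more than 10 kb from a start. That summit falls in a copy of MLT1L, an LTR of the ERVL-MaLR class. It was the only summit of the list in an MLT1L copy, and 11 of the 191 LTR summits had a higher score. Of the 1282 protein-coding genes to which a summit was assigned, 19 had 3 or more (1.48%), and 1142 had 1 (89.1%). The PARP8 span is 180589 bp long, against 6505 to 50002 bp for the other members, and the part of its length in this number was not tested.

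PARP3, a nuclear transferase known for its role at DNA breaks, had 1 summit, with a score near the middle of the list. It lies at chromosome 3 position 51943021, far from the cluster, in intron 1 of 10 and 716 bp downstream of the start. Its score of 27.2 had a rank of 896 and exceeded 54.9% of the list.

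**Figure D4:**
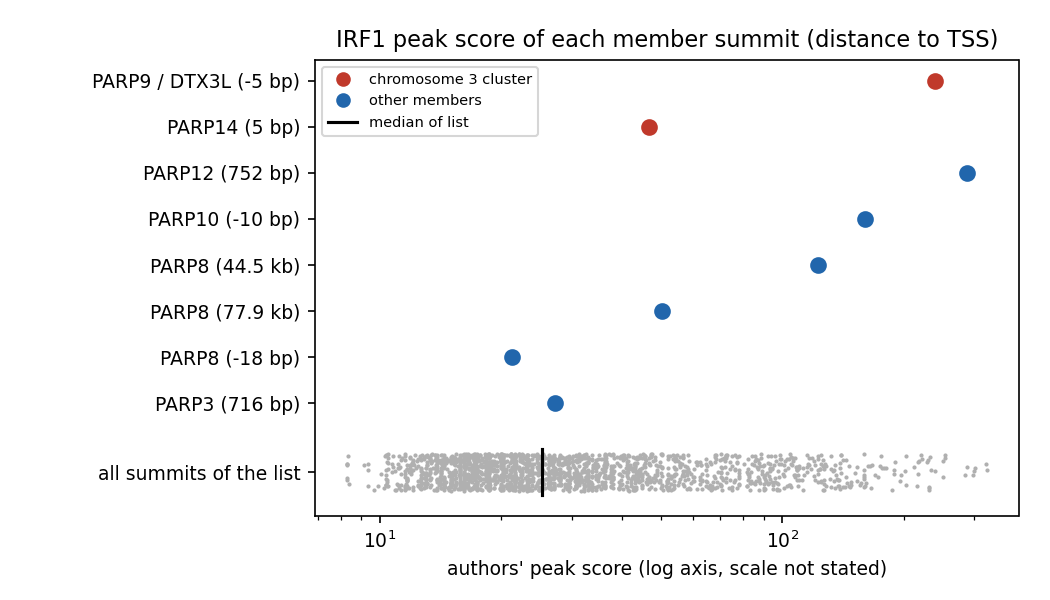
Authors' peak score (log axis) of the 8 summits, with the distance to the start beside each gene, the chromosome 3 cluster in red and the other members in blue, above all 1986 summits in grey with their median as a black line. Scores range from 21.3 at the PARP8 promoter to 287 at PARP12, and only the PARP8 promoter summit lies below the median of 25.2.

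Taken by location, the cluster had 2 summits for 3 genes, both classed as promoter and both within 100 bp of a start. The 4 other genes had 6 summits, of which 2 were classed as promoter, 3 as intron and 1 as a non-coding exon. Of these 6 summits, 4 lay within 1 kb of a start. In the whole list of 1986 summits, 384 were classed as promoter and 698 as intron. Of that list, 217 (10.9%) lay within 100 bp of a start. The cluster's scores were 240.0 and 46.5, and those of the others ran from 21.3 to 287 with a median of 86.5, so the cluster lies within the range of the others. In all, 6 of the 8 summits were within 1 kb of a start, against 27.1% of the whole list. Of the 8, 3 were among the 100 highest scores of the 1986 summits. Of the 7 genes, 6 had a summit assigned within 10 kb, as did 3.36% of 19974 protein-coding genes. The genes were chosen from this same list, so these shares are a description and support nothing further. The summits within 1 kb of a start that came next to PARP9 in score were those of the ubiquitin-like modifier gene ISG15 (251) and C5orf56 (250.0) above it, and of APOL2 (233) and ZFAS1 (233) below it.

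**Figure D5:**
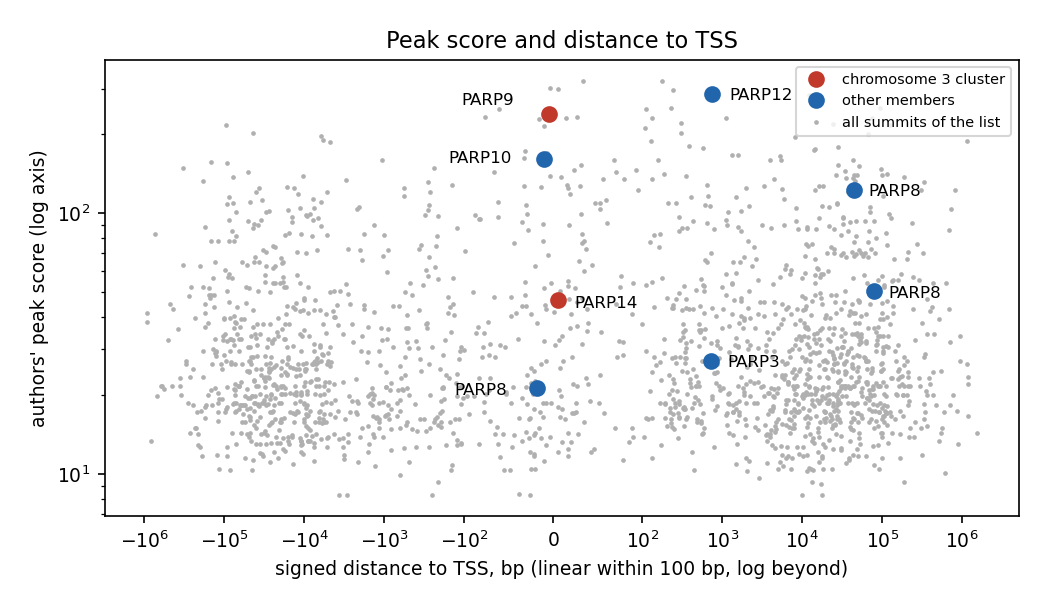
Authors' peak score (log axis) against the signed distance to the start in bp (linear within 100 bp, log beyond) for the cluster (red), the other members (blue) and all summits (grey). The PARP9, PARP14, PARP10 and lowest PARP8 summits sit within 18 bp of a start, PARP12 and PARP3 at 752 and 716 bp, and the 2 remaining PARP8 summits beyond 44 kb.

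The rest of the ADP-ribosylation machinery was described from a list of 29 genes that includes the 7 members. Of the 22 others, 1 had a summit assigned within 10 kb, beside the background of 3.36%, and 4 had one at any distance, beside 6.38% of protein-coding genes. By position, in gene spans extended by 10 kb, 3 of the 22 had a summit: ZC3HAV1, PARP4, whose summit is in its own intron, and PARP16. The share of all genes by this span measure was not computed, so that count has no background beside it. The one within 10 kb was ZC3HAV1, also named PARP13, the catalytically inactive antiviral protein ZAP that binds viral RNA, with a summit of 52.5 in its 5′ UTR, 333 bp from the start, and one of 17.2 at -2292 bp. PARP11 (51.4), PARP4 (32.5) and PARP16 (19.98) were the nearest genes of 1 summit each, at 154.1, 53.4 and 31.8 kb. PARP1 and PARP2, the main DNA damage transferases, the tankyrases TNKS and TNKS2 and TIPARP had none at any distance. The same was true of the other Deltex genes DTX1, DTX2, DTX3 and DTX4. None of the 7 listed genes that remove ADP-ribose or assist its transfer had one either, among them the glycohydrolase gene PARG and the macrodomain hydrolase genes MACROD1, MACROD2 and OARD1. Promoter windows existed for 18 of the 22 others, and 0 of the 18 held the ISRE core, ZC3HAV1 included. None of these windows contains a summit, so they say nothing about the letters under the ZC3HAV1 summits. The core was in 3.57% of all promoter windows, and 1195 of 27305 genes had it in a window. By either share, 0 of 18 does not set these genes apart. An absent summit does not show absent binding, since it is not known against what background and at what threshold the summits were called, nor at what read depth.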

How the data were processed

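Formaldehyde-fixed chromatin was, per the labels' protocols, sonicated and immunoprecipitated, and libraries were amplified by PCR. The submitters' processing notes name Bowtie2 2.2.9, MACS 1.4.2 and hg38. Annotation of the summits was by HOMER (annotatePeaks.pl, hg38), per the file headers. The peak score is the authors' deposited value, used only to describe and rank summits within this list. Each summit is 1 base, 1-based on hg38. How peaks were called (background, threshold, duplicate reads) is not given in the sources used here, and depth is unknown.

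Members, lists and motifs were chosen with earlier results of these data known. The rule for named genes takes the 7 members, listed genes with a summit within 10 kb and the nearest genes of the 2 summits above and below PARP9 in score. Other genes, with or without a summit, were named after their values were seen. Members and the promoter windows of listed genes were matched by symbol to RefSeq (GRCh38.p14). Entrez identifiers served as a check for the members, and a start is a transcription start site. Promoter sequences are RefSeq's. The motif search was tested on simulated sequence. With 1 library and genes chosen from it, no test across samples was possible. Intervals cover counting error only. Alternatives were the 993 highest scores, merging of summits under 200 bp apart, limits of 1 kb and 10 kb, spans extended by 10 kb, other motif lengths and RefSeq starts. Python 3.11.15 with pandas, scipy and matplotlib was used.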

Additional observations from a re-analysis of the deposited data

How the results depend on the processing

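Each group had 1 library, so leave-one-out values do not exist. No paired analysis was possible because there was a single library on either side. The search for the ISRE core around summits was not run for want of a genome sequence. Of 30 alternative counts and medians, 29 were within 1.5 times the reported value, the exception being the longer motif. The median score of the PARP12, PARP10, PARP8 and PARP3 summits, 86.5, was 123 among the 993 highest scores, where the PARP8 promoter summit drops out. It was 94.0 with summits limited to 10 kb or to 1 kb from a start, where the intronic PARP8 summits drop out. With the longer ISRE core, in which a C follows, 2 members held it, PARP9 and DTX3L, in place of 4. Measured from RefSeq starts, a comparison chosen after seeing the data, the summit changed sides at PARP12 (-18 bp in place of 752), PARP14 (-9 in place of 5) and the PARP8 promoter (283 in place of -18), because the annotated starts differ. It stayed upstream at PARP9 (-52 bp) and downstream at PARP3 (658 bp). The nearest RefSeq start was used where a gene has several. From the other PARP9 start, at 122564784, the summit is 432 bp downstream. Depth behind a summit is unknown, so scores carry no error.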

Other observations

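The 11 promoter windows with a summit and 3 GAAA repeats, the pattern seen at PARP14 and PARP12, belong to 11 genes. Among the other 9 are MX1, OAS3, IFIT3 and DDX60, which are known antiviral interferon-stimulated genes and were picked for naming after the list was seen. A further 27 windows held the pattern without a summit (0.0776% of windows without one).

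Summits that shared a promoter window with an ISRE core had a median score of 49.2 (98 summits, quartiles 28.4 and 110), against 19.6 for the 157 summits in windows without one. PARP9 and PARP12 lie above the upper quartile of the first set and PARP14 (46.5) lies just below its median. PARP14 and PARP12 have 3 repeats and PARP9 does not, while the PARP9 copy has the longer form of the core. The part of these motif differences and of base composition in these values was not tested. The windows of these genes had a GC content of 66.3% (DTX3L), 64.7% (PARP14) and 71.3% (PARP12), against a median of 62.7% in windows with a summit and 58.7% in all windows.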
